A study of Mus musculus with 6 samples.

Results

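The small leucine-rich proteoglycans are secreted proteins built around a curved stack of leucine-rich repeats, many of which carry sulfated sugar chains. The genes Dcn, Bgn, Aspn, Lum, Fmod, Kera, Prelp, Omd, Ogn and Epyc were taken by symbol from read counts of embryonic mouse palate. All 10 were found among the 23420 genes of the count files. The mutant embryos had the genotype Shox2Cre/-;Nkx2.5F/F, with a Cre allele and a null allele of the homeobox gene Shox2. The control embryos had the genotype Shox2Cre/+;Nkx2.5F/F, in which the same Cre allele is paired with an intact copy of Shox2. Both groups were homozygous for a floxed Nkx2-5 gene, were on a C57BL/6 background and were taken at E14.5, and each had 3 libraries made from the tissue that becomes the front of the hard palate. The control is thus not wild type, and Cre from the Shox2 locus could act on Nkx2-5 in both groups.

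In connective tissue these proteins lie on the surface of collagen fibrils and set how thick and how regularly spaced the fibrils become. They also bind growth factors, above all TGF-beta. Decorin and biglycan carry chondroitin or dermatan sulfate, whereas fibromodulin, lumican, keratocan and osteomodulin carry keratan sulfate. In skeletal tissue biglycan, osteomodulin, asporin and osteoglycin are known from bone, tooth and periosteal matrix, and epiphycan from growth plate cartilage.

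Library totals were 52668242 to 53331397 counts in the mutants and 81950407 to 134813429 in the controls, so depth and genotype cannot be told apart. Levels are given as CPM, counts relative to the library total, scaled between libraries by the trimmed mean of M values. Fold changes are mutant over control from edgeR's quasi-likelihood test, and a gene is called where its Benjamini-Hochberg adjusted p over 16604 tested genes is under 0.05. By this rule 45.8% of all tested genes were called, 24.1% higher and 21.7% lower in the mutant. Shox2 stood at 3.13 to 5.30 CPM in the mutants and 68.2 to 88.2 CPM in the controls (log2 fold change -4.24, SE 0.21, adjusted p = 0.000137). Markers of palatal mesenchyme and fibroblasts, among them Osr2, Prrx1 and Meox2, were present in every library. Their sums over 10 genes were 2860 to 3110 CPM in the mutants and 3020 to 3570 CPM in the controls. Pdgfra, Prrx2 and Twist1 of that list were called lower, and none was called higher. Replicate 1 stood apart from replicates 2 and 3 in both groups, with pairwise correlations of log2 CPM of 0.975 against 0.988 in the mutants and 0.981 against 0.992 in the controls. Whether 1 embryo or a pool went into each library is not stated, and p-values measure only the spread between these libraries.

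Of the 10 proteoglycan genes 9 lie in 3 clusters (GENCODE M21, GRCm38). On chromosome 10, plus strand, Dcn (97479609 to 97518143) is followed by Lum (97565128 to 97572703), Kera (97606879 to 97613692) and Epyc (97644068 to 97682454). On chromosome 13, plus strand, Aspn (49544443 to 49567565), Omd (49582462 to 49592822) and Ogn (49608046 to 49624501) follow the related gene Ecm2, and all lie inside the gene Cenpp on the other strand. On chromosome 1, Prelp (133910304 to 133921414, minus strand) and Fmod (134037254 to 134048277, plus strand) lie with Optc, the gene of opticin. Bgn is alone on chromosome X (73483602 to 73495933, plus strand). Whether reads were counted by strand is not stated. Cenpp shares 7 exon bases with Aspn and none with Omd or Ogn, Epyc shares 1041 with the antisense noncoding gene Gm10754, which had no counts, and Prelp shares 350 with the antisense gene Gm15851, which is not in the count files, so antisense reads in the Prelp counts cannot be told apart.

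The sequences upstream of 4 of these genes are shown because their RNA levels moved in different ways: Bgn and Fmod were called higher, Prelp was called lower, and Ogn differed most between control libraries among the abundant genes. Each is the 250 bases before the RefSeq start on GRCm38.p6, on the gene's own strand, at chrX:73483351-73483600, chr1:134037004-134037253, chr1:133921402-133921651 (minus strand) and chr13:49607765-49608014. Capitals mark matches on either strand to TATAAA, to GGGCGG (the GC box) or to TGTGGT (the core bound by RUNX factors).
Bgn: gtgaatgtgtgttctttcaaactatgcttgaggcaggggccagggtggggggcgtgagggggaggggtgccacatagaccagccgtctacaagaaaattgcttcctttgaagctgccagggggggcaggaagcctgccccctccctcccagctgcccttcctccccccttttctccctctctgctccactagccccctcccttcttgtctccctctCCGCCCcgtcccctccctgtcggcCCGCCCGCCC
Fmod: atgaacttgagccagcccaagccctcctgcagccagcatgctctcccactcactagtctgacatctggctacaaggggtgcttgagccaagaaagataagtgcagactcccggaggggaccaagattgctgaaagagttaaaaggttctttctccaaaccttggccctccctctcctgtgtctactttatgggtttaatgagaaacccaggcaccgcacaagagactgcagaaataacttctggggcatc
Prelp: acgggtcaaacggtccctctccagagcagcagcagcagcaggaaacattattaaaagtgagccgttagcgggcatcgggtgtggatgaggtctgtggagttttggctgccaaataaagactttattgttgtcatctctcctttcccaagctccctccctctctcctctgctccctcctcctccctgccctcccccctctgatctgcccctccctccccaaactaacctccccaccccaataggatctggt
Ogn: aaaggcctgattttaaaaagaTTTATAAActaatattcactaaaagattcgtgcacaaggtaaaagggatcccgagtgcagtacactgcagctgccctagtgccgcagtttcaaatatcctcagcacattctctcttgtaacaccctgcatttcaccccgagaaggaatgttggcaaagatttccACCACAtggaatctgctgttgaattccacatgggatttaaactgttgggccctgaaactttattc
The Bgn window holds 3 GC boxes and 64.4% G and C, higher than 81.4% of the 32536 upstream windows in the table. GC boxes were found in 33.0% of all windows and in no other of the 8 proteoglycan genes with a window. The Ogn window holds a RUNX core at base 186 from its 5′ end, a sequence found in 14.0% of all windows, and 2 overlapping TATAAA matches at bases 22 and 24. TATAAA was found in 12.3% of all windows and, among the proteoglycan genes, also in Aspn, whose window has 30% G and C. The Fmod and Prelp windows, with 51.2% and 55.6% G and C, hold none of these letters. The homeodomain core TAATTA (4.8% of all windows) and the paired homeodomain motif (0.5%), searched on both strands and able to overlap, were found for none of the 8 genes. The E-box CANNTG was found for 5 of them, beside 66.2% of all windows.

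Per transcript length, 5 of the genes made up nearly all of the family's RNA. RPKM, the CPM per kilobase of transcript, were computed with the length of each gene's longest protein-coding transcript. Bgn, Lum, Ogn, Dcn and Aspn held 96.1% to 97.5% of the summed RPKM of the 10 genes in the mutants and 95.2% to 95.8% in the controls. In the mutants the order of mean RPKM was Bgn (359 ± 41.6, SD, n = 3 here and below), Lum (230 ± 30.5), Ogn (194 ± 22.8), Dcn (175 ± 7.52), Aspn (107 ± 28.9), Fmod (19.6 ± 1.24), Omd (12.3 ± 4.47), Kera (3.37 ± 1.83), Prelp (1.33 ± 0.124) and Epyc (0.256 ± 0.21). The ranges of neighbours in that order overlapped only for Ogn with Dcn and for Kera with Prelp. In the controls the means were 207 ± 47.8 for Bgn, 187 ± 17.5 for Lum, 125 ± 58.8 for Ogn, 107 ± 18.3 for Dcn, 97.1 ± 40.3 for Aspn, 14.8 ± 7.75 for Omd, 12.7 ± 3.86 for Fmod, 3.48 ± 1.51 for Kera, 2.54 ± 0.374 for Prelp and 0.191 ± 0.0776 for Epyc. There the ranges of Bgn and Lum, of Ogn and Dcn, of Dcn and Aspn, of Omd and Fmod, and of Kera and Prelp overlapped. The order depends on the length used. All merged exons came to 5838 bases for Dcn and 6099 for Bgn, against transcript lengths of 1758 and 2419. Over merged exons Lum came first in both groups (230 RPKM in the mutants and 187 RPKM in the controls). Bgn then had 142 RPKM in the mutants and 82.1 RPKM in the controls.

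Counts of the 10 genes together made up 0.27%, 0.281% and 0.245% of all counts in mutant replicates 1, 2 and 3, against 0.125%, 0.198% and 0.198% in the controls. The share was higher in every mutant than in every control, and control replicate 1 had the lowest. Of the 10 genes 3 were called higher (30%), 1 lower (10%) and 6 were not called, beside 24.1% higher and 21.7% lower among all tested genes. In 5 of the 10 genes every mutant lay above every control, and in 1 every mutant lay below, where 29.7% and 29.2% of all tested genes showed these patterns (58.9% together). The median log2 fold change of the 10 was 0.37, and that of all tested genes was 0. All 10 genes passed the filter on low counts. In bulk tissue, fewer cells of a type and less RNA per cell cannot be told apart.

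**Figure D1:**
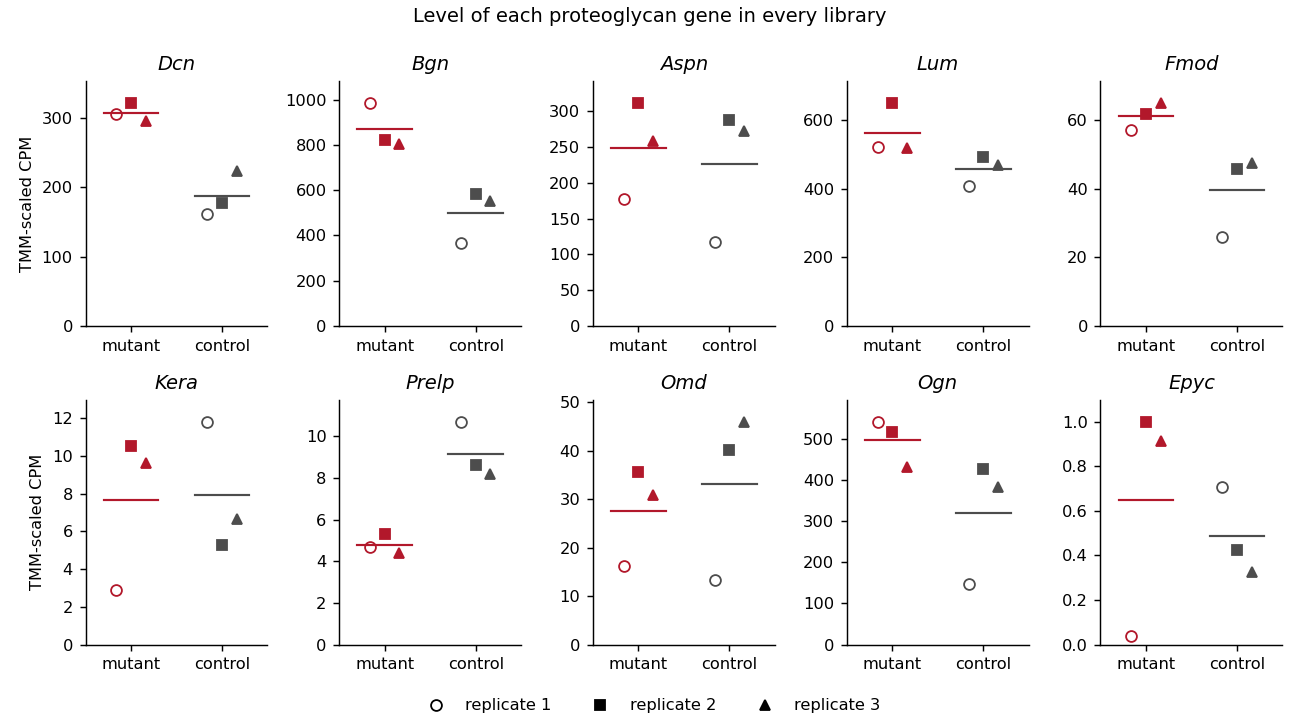
TMM-scaled CPM of each of the 10 proteoglycan genes in the 3 mutant libraries (red, left) and the 3 control libraries (grey, right), with symbols for the replicates and a line at each group mean; every axis starts at 0. Dcn, Bgn, Lum, Fmod and Ogn have all mutants above all controls, and Prelp has all mutants below. The open circles of replicate 1 lie apart for Aspn, Omd, Kera and Epyc. For Ogn, Bgn and Fmod the open circle of the controls lies well below the other controls.

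Decorin, biglycan and asporin form the class of the family closest to each other in sequence. Dcn, whose product wraps collagen I fibrils and binds TGF-beta, had 305, 321 and 295 CPM in the mutants, against 161, 178 and 224 CPM in the controls. The mutants lay close together and all above the highest control, replicate 3. Dcn rose by 0.71 on the log2 scale (SE 0.12, 1.64-fold, adjusted p = 0.00326), and it was called in each of the 17 alternative analyses, with log2 fold changes of 0.60 to 0.85.

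Bgn, the gene of biglycan, which binds collagen and BMP and TGF-beta ligands in bone and tooth matrix, had 984, 821 and 802 CPM in the mutants and 368, 582 and 551 CPM in the controls. Here the groups were apart by over 200 CPM, with mutant replicate 1 highest and control replicate 1 lowest. The gene rose by 0.80 (SE 0.18, 1.74-fold, adjusted p = 0.0098). Without replicate 1 of both groups the log2 fold change was 0.51, still called (adjusted p = 0.000856). Y-linked RNA, a measure of male embryos, was 199 to 244 CPM in the mutants. It was 192, 36.2 and 87.5 CPM in control replicates 1, 2 and 3. Only control replicate 1 was near the mutants, so fits with this covariate lean on that library. With that level as a covariate the log2 fold change of this X-linked gene was 1.19 (adjusted p = 0.00587).

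Aspn, whose product asporin lacks the sugar attachment site of its relatives and is known to inhibit TGF-beta in cartilage, had 177, 311 and 258 CPM in the mutants and 118, 287 and 273 CPM in the controls. The groups overlapped, and replicate 1 was the lowest library in both. Its log2 fold change of 0.14 (95% interval -0.67 to 0.94, adjusted p = 0.766) was not called, and it was -0.18 without control replicate 1, -0.05 without mutant replicate 2 and 0.86 with the Y-linked covariate (adjusted p = 0.163).

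Lumican, fibromodulin, keratocan, PRELP and osteomodulin form the second class, in which keratan sulfate chains are common. Lum, whose product spaces collagen fibrils and keeps the cornea clear, had 521, 649 and 519 CPM in the mutants, against 409, 493 and 468 CPM in the controls. Every mutant lay above every control, though mutant replicates 1 and 3 exceeded control replicate 2 by under 30 CPM. Its log2 fold change of 0.30 (SE 0.12, 95% interval 0.03 to 0.58) missed the threshold (adjusted p = 0.0699). It was called by DESeq2 (adjusted p = 0.0302), with library size only (0.0336), with the GC content and length correction (0.0435) and with the replicate number as a block (0.0426), and not in the other 13 alternatives. It was 0.19 without mutant replicate 2 (adjusted p = 0.215) and 0.22 without control replicate 1 (adjusted p = 0.173).

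Fmod, the gene of fibromodulin, a collagen-binding proteoglycan of tendon and tooth ligament, had 57.0, 61.7 and 64.8 CPM in the mutants and 25.8, 45.8 and 47.5 CPM in the controls. The mutants spread over under 10 CPM and lay above all controls, of which replicate 1 was far the lowest. Fmod rose by 0.62 (SE 0.22, 1.54-fold), with an adjusted p of 0.0488 just under the threshold. The call was lost without mutant replicate 1 (adjusted p = 0.0764), 2 (0.115) or 3 (0.126), without control replicate 2 (0.0558), with counts thinned to equal depth (0.0503) and with the GC content and length correction (0.0613). Without control replicate 1 the log2 fold change was smaller, at 0.38, and called (adjusted p = 0.00996), and with the Y-linked covariate it was 1.09 (adjusted p = 0.016).

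Prelp was the one gene of the 10 called lower with all libraries. Its product is a proline- and arginine-rich protein that links heparan sulfate of basement membranes to collagen. Prelp had 4.69, 5.29 and 4.41 CPM in the mutants, against 10.7, 8.62 and 8.2 CPM in the controls. All mutants lay below all controls, and neither group had a library standing far apart. The gene fell by 0.94 on the log2 scale (SE 0.17, adjusted p = 0.00418), and the fold change was -1.12 to -0.80 and called in each of the 17 alternatives. Its neighbours on chromosome 1 did not share that direction. Fmod was called higher, and Optc had 4.43, 3.09 and 3.52 CPM in the mutants and 2.14, 2.30 and 2.61 CPM in the controls (log2 fold change 0.65, SE 0.22, adjusted p = 0.0485). The Optc call was lost without any 1 of the 6 libraries (adjusted p 0.059 to 0.127).

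Omd, the gene of osteomodulin, a keratan sulfate proteoglycan of mineralized matrix, had 16.3, 35.6 and 30.8 CPM in the mutants and 13.3, 40.2 and 46.0 CPM in the controls. Replicate 1 was lowest in both groups, and the groups overlapped. The log2 fold change of -0.27 (95% interval -1.35 to 0.82, adjusted p = 0.665) was not called, was -0.66 without control replicate 1 and -0.50 without mutant replicate 2, and was 0.04 without control replicate 3.

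Kera, the gene of keratocan, best known from corneal stroma, had 2.91, 10.5 and 9.62 CPM in the mutants and 11.8, 5.29 and 6.65 CPM in the controls. Replicate 1 was the lowest of the mutants and the highest of the controls. The log2 fold change was -0.04 (95% interval -1.20 to 1.12, adjusted p = 0.95) with all libraries, 0.35 without replicate 1 of either the mutants or the controls, and -0.70 with the Y-linked covariate (adjusted p = 0.395). Of 6 cornea and eye markers 4 passed the count filter and 3 were called higher (Aldh3a1, Pax6 and Mitf), Crygd had no counts in any library, and the summed list was 14.6 to 18.4 CPM in the mutants and 5.78 to 8.33 CPM in the controls. Eye tissue as a source of Kera was not tested.

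Osteoglycin and epiphycan form the third class. Ogn, whose product, also called mimecan, is found in bone and vessel walls, had 543, 518 and 432 CPM in the mutants, against 147, 427 and 385 CPM in the controls. Each mutant lay above each control, but mutant replicate 3 and control replicate 2 differed little and control replicate 1 stood far below the rest. The log2 fold change of 0.64 (SE 0.35, 95% interval -0.19 to 1.46) was not called (adjusted p = 0.177), and it was 0.28 without control replicate 1. With the Y-linked level as a covariate it was 1.58 and called (adjusted p = 0.0151). Control replicate 1, the lowest library for Ogn, was the only control with a Y-linked level near the mutants.

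Epyc, the cartilage gene of epiphycan, had the fewest counts of the 10 genes, with 2, 54 and 49 counts in the mutants and 57, 43 and 43 counts in the controls. That is 0.0363, 0.999 and 0.912 CPM in the mutants and 0.705, 0.426 and 0.324 CPM in the controls. Mutant replicate 1 was nearly empty of it, as it was low in Kera, the next gene on the chromosome. The log2 fold change of 0.43 (95% interval -1.63 to 2.48, adjusted p = 0.717) was not called, and it was 0.99 without mutant replicate 1 and -0.03 without mutant replicate 2.

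**Figure D2:**
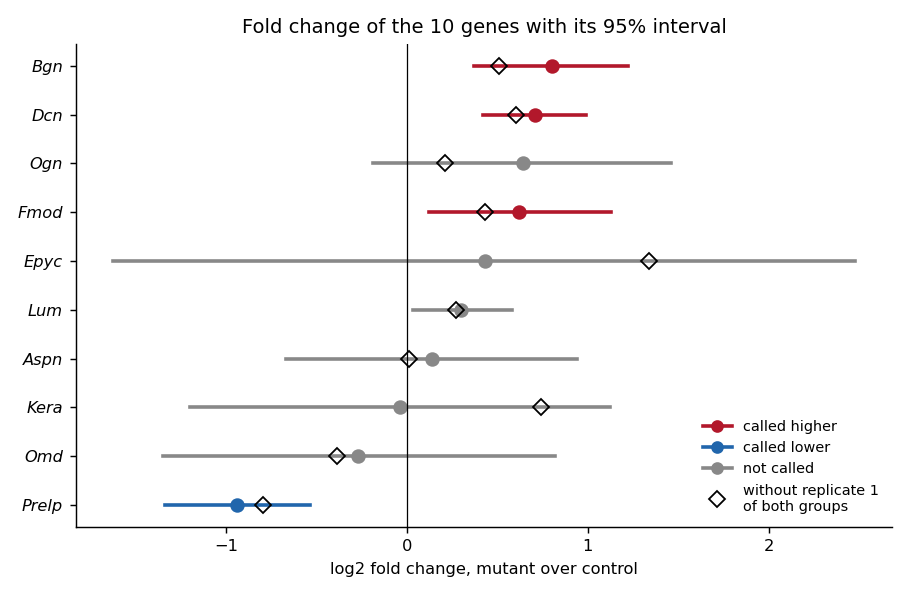
Log2 fold change of the 10 genes, mutant over control, with its 95% interval over all 6 libraries (filled circles and bars, coloured by call) and the value without replicate 1 of both groups (open diamonds). The intervals of Bgn, Dcn, Fmod, Lum and Prelp leave out 0, and the diamonds of Kera and Epyc lie far to the right of their circles.

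Leaving out replicate 1 of both groups, libraries known from earlier results of these data to stand apart, gave 5 genes called higher and 2 called lower, where 27.3% and 26.8% of 16824 tested genes were called. Dcn (0.60), Bgn (0.51), Fmod (0.43) and Prelp (-0.80) were called in the same direction as with all libraries. Kera (0.74, adjusted p = 0.00969) and Epyc (1.34, adjusted p = 0.0353) were then called higher and Omd (-0.39, adjusted p = 0.0181) lower. Aspn (0.01, adjusted p = 0.93), Lum (0.27, adjusted p = 0.07) and Ogn (0.21, adjusted p = 0.112) were not called. With 2 libraries a group these values rest on 4 libraries.

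Genes of 1 cluster did not all point the same way. On chromosome 10 the log2 fold changes were 0.71 for Dcn, 0.30 for Lum, -0.04 for Kera and 0.43 for Epyc, and Dcn alone was called. On chromosome 13 they were 0.14 for Aspn, -0.27 for Omd and 0.64 for Ogn, none called, beside 0.77 for Ecm2 (adjusted p = 0.132). Ecm2 was called without mutant replicate 1 (1.09, adjusted p = 0.0142). Cenpp, the centromere protein gene that spans this cluster on the other strand, fell by 0.63 (SE 0.12, adjusted p = 0.0047). On chromosome 1 Prelp was called lower, while Fmod (adjusted p = 0.0488) and Optc (adjusted p = 0.0485) were called higher just under the threshold.

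**Figure D3:**
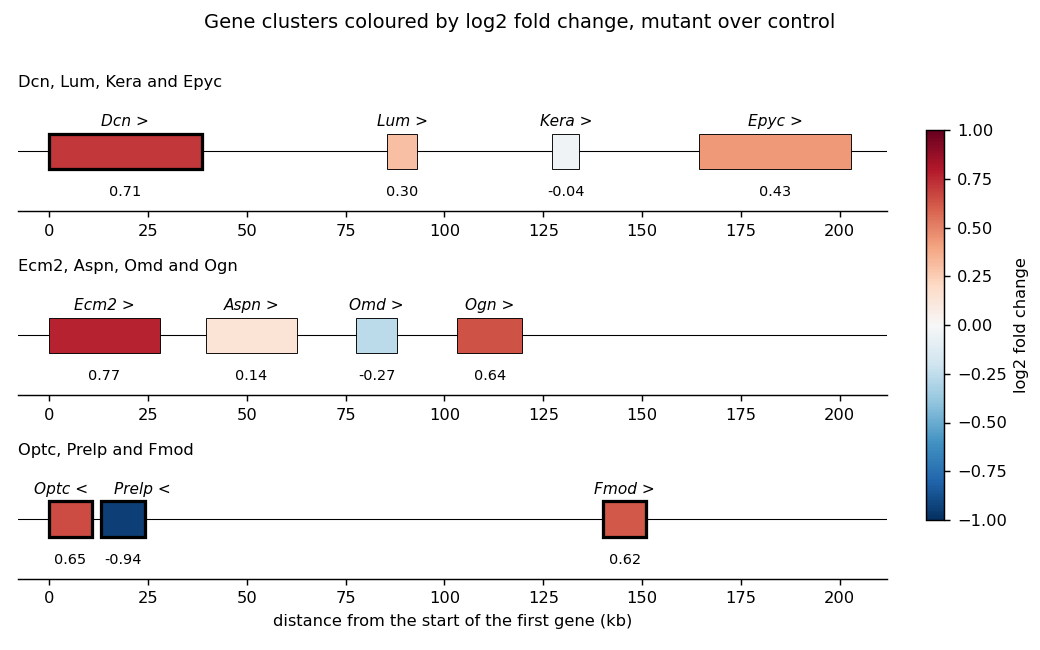
The 3 gene clusters drawn to scale in kilobases from the start of the first gene, with arrows for the strand, fill colour and printed number for the log2 fold change of mutant over control, and thick outlines for called genes. Prelp (-0.94) lies between Optc (0.65) and Fmod (0.62), and none of Ecm2, Aspn, Omd and Ogn is called. Cenpp is not drawn.

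Across the 6 libraries the genes fell into different patterns, which are described here without a test since all share library, depth and genotype. Log2 CPM of Aspn and Omd correlated at 0.936, of Kera and Epyc at 0.936, of Fmod and Ogn at 0.939, and of Dcn and Bgn at 0.915. Prelp ran against Dcn (-0.948) and Bgn (-0.942). Aspn, Omd and Ogn were lower in control replicate 1 than in the mean of control replicates 2 and 3, with log2 differences of -1.24, -1.65 and -1.46. In mutant replicate 1 Aspn (-0.68) and Omd (-1) were below the other mutants, but Ogn (0.20) was not.

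Markers of several cell types moved with the groups or with these libraries, where 24.1% of all tested genes were called higher and 21.7% lower. The 10 osteoblast markers summed to 414 to 537 CPM in the mutants and 987, 3540 and 3060 CPM in control replicates 1, 2 and 3, with all 9 tested markers called lower, Runx2, Sp7 and Ibsp among them. Ibsp, like Aspn and Omd, was low in replicate 1 of both groups, with log2 differences of -2.91 in the mutant and -2.57 in the control from the other replicates. Chondrocyte markers summed to 233 to 248 CPM in the mutants and 330 to 451 CPM in the controls. Most of that gap was Col2a1, with 56.5, 54.3 and 47.8 CPM in the mutants and 126, 223 and 168 CPM in the controls. Col2a1 and Col9a1 were the 2 of 9 tested called lower, none was called higher, and 7 were not called. All 10 epithelium markers were called higher (5140 to 5820 CPM in the mutants, 983 to 1660 CPM in the controls), as were all 8 macrophage markers (316 to 406 CPM in the mutants, 70.2 to 124 CPM in the controls). Of 8 skeletal muscle markers 7 were called lower (4.25 to 5.16 CPM in the mutants, 8.34 to 75.3 CPM in the controls). The fibroblast and mesenchyme list had 3 of 10 called lower (Pdgfra, Prrx2 and Twist1) and none higher. The tendon and ligament list, which holds Kera and Fmod, had 1 called higher (Fmod) and 2 lower (Tnmd, Thbs4), with sums of 148 to 179 CPM in the mutants and 161 to 194 CPM in the controls. The endothelium and mural list had 1 of 8 called higher (520 to 684 CPM in the mutants, 399 to 530 CPM in the controls). The nerve and glia list had 3 of 7 lower (30.3 to 50 CPM in the mutants, 51.5 to 103 CPM in the controls). Of the red blood cell list 3 of 5 tested were lower (25.7 to 38.4 CPM in the mutants, 213 to 639 CPM in the controls). Hba-a1 had no counts in any library. The part of these cell types in the proteoglycan results was not tested.

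**Figure D4:**
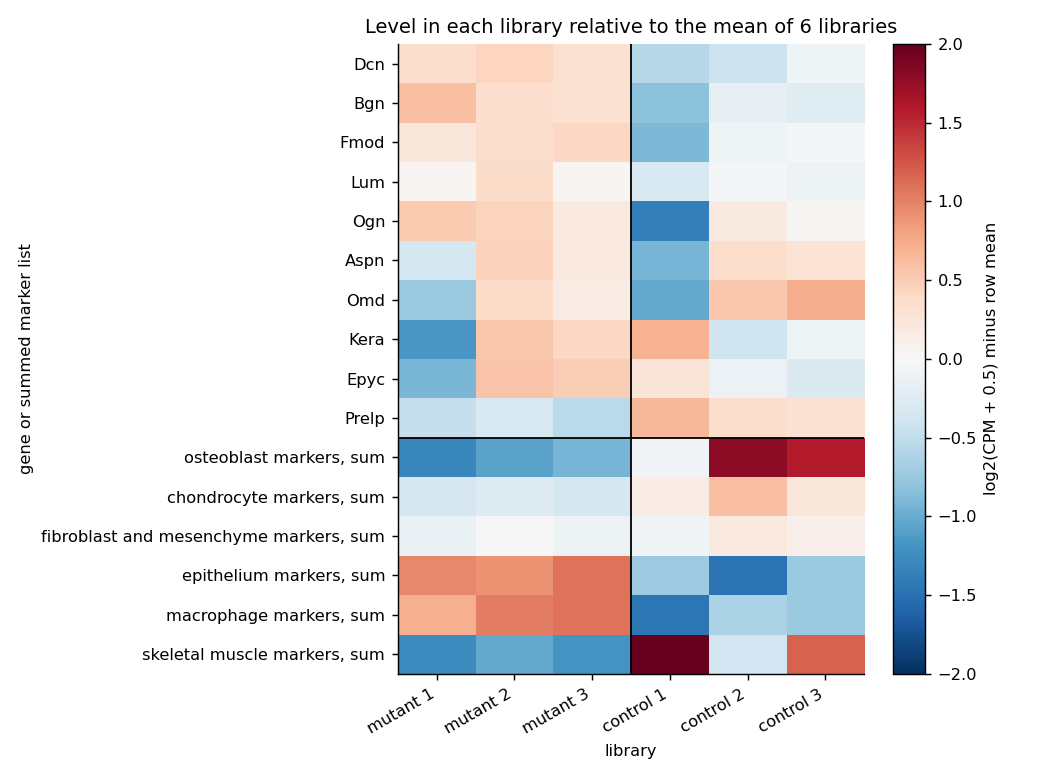
Log2(CPM + 0.5) of each proteoglycan gene and of the summed level of 6 marker lists in each library, minus the mean over the 6 libraries of that row; red is above and blue below, and the colour scale ends at 2 in either direction. Control replicate 1 is low in Ogn, Aspn and Omd, mutant replicate 1 in Omd, Kera and Epyc, and the osteoblast sum is highest in control replicates 2 and 3.

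For the most abundant gene of each locus, the 3 other genes with the highest correlation of log2 CPM over the 6 libraries were noted. For Lum these were Ttc38 (0.992), Flt1 (0.992) and Nqo2 (0.986). For Ogn they were Slc35f6 (0.994), the cartilage proteoglycan gene Acan (0.993) and Adamtsl1 (0.992). For Fmod they were Adam3 (0.994), Paqr6 (0.993) and Smpd1 (0.992), and for Bgn they included Ctsa (0.999) and Inpp5d (0.998). Among 14475 genes compared, 40 reached 0.95 with Lum, 93 with Ogn, 228 with Fmod and 545 with Bgn.

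Of 8 other genes of the wider family, 2 were called higher and 1 lower (25.0% and 12.5%, median log2 fold change 0.44). For this list and those below, the shares over all tested genes were 24.1% higher and 21.7% lower. Tsku, the gene of tsukushi, a secreted modulator of BMP and WNT signalling, had 70.9, 68.5 and 61.0 CPM in the mutants and 46.7, 51.6 and 50.3 CPM in the controls and rose by 0.43 (SE 0.08, adjusted p = 0.00464). Optc, given above, was the other. Podnl1, a podocan relative, had 1.53, 1.78 and 2.48 CPM in the mutants and 2.5, 4.2 and 7.08 CPM in the controls and fell by 1.26 (SE 0.4, adjusted p = 0.0375). Its call was lost without any 1 of the mutants (adjusted p 0.053 to 0.111) and without control replicate 2 (0.0693) or 3 (0.126), so the count of lower genes was then 0, and without control replicate 3 its log2 fold change was -0.80. The count of higher genes was 1 without mutant replicate 2 or 3 or without any 1 of the controls.

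Of 23 genes of chondroitin and dermatan sulfate synthesis, 7 were called lower (30.4%), none higher and 16 were not called. Among all tested genes 21.7% were called lower and 24.1% higher. The list's median log2 fold change was -0.09. Csgalnact1, which starts chondroitin chains, had 7.27, 8.78 and 9.98 CPM in the mutants and 16.2, 21.4 and 20.1 CPM in the controls and fell by 1.15 (SE 0.17, adjusted p = 0.00176). Chsy1, which lengthens them, fell by 0.67 (SE 0.11), B3gat3 of the linker by 0.38 (SE 0.08) and the sulfotransferase gene Chst15 by 0.31 (SE 0.06). The count of lower genes was 3 with the Y-linked covariate, under which B3gat3 was not called (adjusted p = 0.0735), and 1 gene was called higher without control replicate 1.

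Of 11 tested keratan sulfate genes, 2 were called higher and 2 lower (18.2% each, median 0.01). Among the sulfotransferase genes Chst2 fell by 0.5 (SE 0.07). Chst5, another of them, had 10.2, 7.43 and 6.53 CPM in the mutants and 3.4, 2.48 and 3.76 CPM in the controls, a rise of 1.33 (SE 0.25, adjusted p = 0.00444). St3gal3, a sialyltransferase, fell by 0.40 (SE 0.08), and B3gnt2, which adds N-acetylglucosamine, rose by 0.45 (SE 0.14). The B3gnt2 call was lost without mutant replicate 2 (adjusted p = 0.0973) or 3 (0.106) or control replicate 2 (0.106) or 3 (0.099), which left 1 gene called higher. With the Y-linked covariate B3gnt2 (adjusted p = 0.274), Chst5 (0.0567) and St3gal3 (0.0611) were not called, and 2 other genes of the list were called higher.

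Of 12 genes of sugar chain breakdown, most of them lysosomal enzymes, 7 were called higher (58.3%), none lower and 5 were not called. Among all tested genes 24.1% were called higher and 21.7% lower. The list's median log2 fold change was 0.41. Ids, the sulfatase of dermatan and heparan sulfate, had 102, 115 and 103 CPM in the mutants and 75.1, 83.1 and 72.6 CPM in the controls, a rise of 0.47 (SE 0.08, adjusted p = 0.00324). Idua, the iduronidase that acts after it, rose by 0.69 (SE 0.14), the heparan sulfamidase gene Sgsh by 0.73 (SE 0.13) and the hyaluronidase gene Hyal1 by 0.86 (SE 0.18). Hyal1 was not called with the Y-linked covariate (adjusted p = 0.079). Macrophages are rich in lysosomes, and the macrophage markers were higher in the same libraries, as given above. The part of macrophages in the breakdown genes was not tested.

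Collagens, crosslinking enzymes and other fibre genes had 4 of 19 called higher and 2 lower (21.1% and 10.5%, median 0.13). Col14a1, a fibril-associated collagen known to bind decorin, had 422, 428 and 441 CPM in the mutants and 116, 92.4 and 123 CPM in the controls and rose by 1.96 (SE 0.11, adjusted p = 0.000167). Eln, the elastin gene, rose by 0.99 (SE 0.20). Both cartilage collagens called, Col2a1 (-1.71, SE 0.20) and Col11a2 (-3.43, SE 0.64), fell. With the Y-linked covariate Col11a2 was at -1.81 and not called (adjusted p = 0.0502), and Eln was at 1.5. The count of higher genes was 2 without mutant replicate 2, and that of lower genes was 7 without control replicate 1.

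Among 13 proteases and helpers that process or cleave these proteins, 1 was called higher and 1 lower (7.69% each, median -0.04). Tll1, a relative of the protease BMP1 that trims probiglycan, had 15.1, 29.6 and 29.4 CPM in the mutants and 9.76, 11.5 and 10.7 CPM in the controls, a rise of 1.21 (SE 0.25, adjusted p = 0.00732). Pcolce2, an enhancer of procollagen cleavage, had 3.6, 4.2 and 3.42 CPM in the mutants and 9.98, 29.2 and 23.3 CPM in the controls and fell by 2.48 on the log2 scale (SE 0.38, adjusted p = 0.00202). Without mutant replicate 1 the higher count was 2, and without control replicate 1 the lower count was 2.

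Signalling partners had 7 of 20 called higher and 2 lower (35% and 10%, median 0.2). Tlr4, an innate receptor of soluble biglycan and decorin, had 13.6, 15.4 and 14.9 CPM in the mutants and 2.73, 3.75 and 3.82 CPM in the controls and rose by 2.09 (SE 0.18, adjusted p = 0.000292). Met, a receptor that decorin binds, rose by 0.79 (SE 0.08), the complement gene C1qa by 1.49 (SE 0.19) and the TGF-beta receptor gene Tgfbr2 by 0.51 (SE 0.07). Tlr4 and C1qa are also genes of macrophages, whose markers were all called higher in these libraries. The part of macrophages in their values was not tested.

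**Figure D5:**
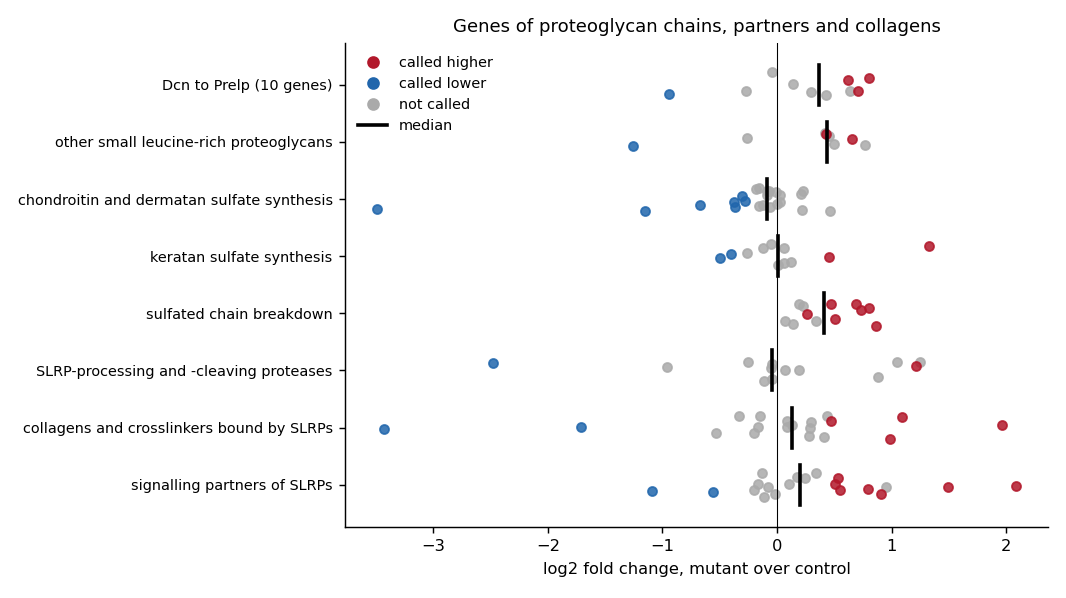
Log2 fold change, mutant over control, of each tested gene in the 10 proteoglycan genes (top row) and in 7 lists of related genes, coloured by call, with a bar at each list's median; points are spread vertically only to be seen. Breakdown genes called lie to the right (7 of 12) and chondroitin and dermatan sulfate synthesis genes called lie to the left (7 of 23). Among all tested genes 24.1% were called higher and 21.7% lower.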

How the data were processed

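RNA of dissected palate from 3 mutant and 3 control samples was sequenced, and the authors deposited a table of counts for each gene symbol and library. The submitters' processing notes name HISAT2, StringTie and the builds mm9 and mm10 with no version or role. How reads were counted is not stated. Low counts (5 to 50) were even in 99.7% of cases in mutant replicate 1 and in 63.6% to 73% in the other libraries.

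Counts were filtered with filterByExpr, scaled by TMM and tested with edgeR 4.0.16 (R 4.3.3), in a quasi-likelihood fit of genotype alone. SE is the absolute log2 fold change over the root of F. Alternatives used limma 3.58.1, DESeq2 1.42.0, other scalings, filters, depths, covariates and left-out libraries. The fit was tested on simulated data.

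GENCODE M21 gave positions and lengths for 98.4% of symbols, and RefSeq gave upstream windows for 8 of the 10 genes. Named genes are the 10, Shox2, Ecm2, Optc, up to 4 called genes of smallest p in each related list, and the 3 most correlated genes per locus, leaving out predicted and other sex-linked genes. For Bgn, 1 of these 3 is not reported here. Cenpp, the other genes beside the clusters and the marker genes were named after their values were seen. The members and lists were chosen with earlier results of these data known.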

Additional observations from a re-analysis of the deposited data

How the results depend on the processing

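Over 17 alternatives, 144 of 169 values of the 10 genes kept their direction and side of the threshold, 6 lost a call (all Fmod), 7 gained one and 12 changed sign (Aspn, Kera, Omd and Epyc). Fmod was not called with thinned counts or the GC content and length correction, nor without 4 of the 6 libraries in turn. Leaving out 1 library gave 2 to 3 genes called higher and 1 lower, and leaving out replicate 1 of both groups gave 5 higher and 2 lower. Signs changed as follows, none called but the last. Aspn ranged from -0.18 to 0.34 with 1 library left out, Kera from -0.34 to 0.35, Omd from -0.66 to 0.04 and Epyc from -0.03 to 0.99. Kera was 0.02 with library size only and 0.01 with thinned counts, Omd 0.61 with the Y-linked covariate, and Epyc -0.37 by limma-voom and -0.06 with that covariate. Kera was 0.74 without replicate 1 of both groups. The cause was not tested.

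Of all tested genes 24.1% were called higher and 21.7% lower with all libraries, and 27.3% and 26.8% without replicate 1 of both groups. Among related lists, wider-family genes called higher numbered 4 with library size only and by DESeq2. They numbered 1 with no filter on low counts and with thinned counts (1 to 2 with 1 library left out). Genes called lower there numbered 0 by limma-voom and with the Y-linked covariate (0 to 1 with 1 library left out). Chondroitin and dermatan sulfate synthesis had 3 lower with that covariate and 2 higher without replicate 1 of both groups (0 to 1 with 1 library left out). Keratan sulfate synthesis had 1 lower with the covariate and 1 higher with the replicate block (1 to 2 with 1 library left out). The list of collagens, crosslinking enzymes and other fibre genes had 7 called higher with library size only and by DESeq2. The same number was called with at least 1 CPM in 3 libraries and without replicate 1 of both groups. With the covariate 9 were called higher (2 to 5 with 1 library left out). Genes of this list called lower numbered 1 with the covariate and 8 without replicate 1 of both groups (2 to 7 with 1 library left out). Without replicate 1 of both groups proteases had 2 higher and 3 lower (1 to 2 each with 1 library left out) and signalling partners 5 lower.

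The labels do not state whether replicate numbers pair the libraries. Deviations of same-numbered libraries correlated weakly, at 0.081, 0.082 and 0.02, yet 5 of 6 libraries correlated best with their own number. A shared effect of the replicate number was not tested. With the replicate number as a block 3720 genes were called higher and 3302 lower, and 4 and 1 of the 10. Epyc had 2, 54 and 49 counts in mutant libraries of like total counts and 43 to 57 in the controls. Mutant replicate 1 differed from the other mutants by -1.44 on the log2 scale for Epyc and by -1.63 for Kera. The cause of this difference was not tested.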
